A study of Danio rerio with 14 samples.

Results

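The genes aanat1 and aanat2 code for the zebrafish forms of arylalkylamine N-acetyltransferase, the enzyme that acetylates serotonin on the way to melatonin. Every probe with deposited values whose gene symbol is aanat1 or aanat2 was taken. This gave 2 probes of 17950, 1 for each gene, and 2 genes of the 8948 named in the table. Any array probes of these genes that the background filter of the authors left out could not be seen. The probe A_15_P133961 stands for aanat2 (Gene ID 30685, earlier name AA-NAT) and the probe A_15_P119137 for aanat1 (Gene ID 393677, earlier name zgc:73074). The probe sequences were not used here, and cross-hybridisation between these related genes was not tested. Their transcripts were compared in dissected eyes of wild-type AB zebrafish larvae, with the eyes of 10 larvae pooled into each RNA sample and 1 plate of 24 eggs behind each sample. Exposed larvae lived until 5 days post fertilization (dpf) in water with 200 µg/L TBBPA. This flame retardant, tetrabromobisphenol A, is known to interact with the thyroid hormone system. Control larvae received 0 µg/L TBBPA and, per the methods, the solvent dimethyl sulfoxide. Eyes were taken at 5 dpf, or at 8 dpf from other plates that had spent 3 days in clean water. Thus there were 4 groups of 3 RNA samples: TBBPA at 5 dpf, control at 5 dpf, TBBPA at 8 dpf and control at 8 dpf. The paired samples were hybridised on 14 2-colour Agilent arrays, so every value is a ratio between samples, and the number of arrays limits its precision.

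Melatonin is made from tryptophan, which tryptophan hydroxylase and aromatic amino acid decarboxylase turn into serotonin. Aanat then makes N-acetylserotonin, and acetylserotonin O-methyltransferase (Asmt) completes melatonin. Bony fish carry a pair of lineages of this acetyltransferase: aanat1 is mainly a retinal gene, whereas aanat2 is the pineal gene and, in zebrafish, is also transcribed in retinal photoreceptors. Aanat activity and transcripts follow a daily rhythm, set in the photoreceptor-like cells by the circadian clock through E-box elements and by homeobox factors of the Otx and Crx family. The methods place all sampling within a few hours of the morning, one larva after another, and do not give the order of the groups. A change in level, a change in daily phase and a difference in collection time therefore cannot be told apart here. In pooled eyes, fewer expressing cells and less transcript per cell cannot be told apart either.

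The member probes gave a value on each of the 14 arrays, of which 6 carried TBBPA and control eyes of 5 dpf, 4 carried those of 8 dpf and 4 linked the ages. Markers of the eye were present: 41 of 62 listed photoreceptor genes had probes above the filter of the table. So had 12 of 13 listed genes of lens, cornea, pigment epithelium and retinoid handling. Of 5 listed pineal genes, only exorh, the pineal extra-ocular rhodopsin gene, was represented. Digestive enzyme genes of the exocrine pancreas were represented by 17 of 36 listed genes, with 29 probes. With the probes of each gene averaged first, their mean level at 5 dpf was -0.23 to 0.44 in TBBPA eyes and 0.62 to 1.80 in control eyes (log2, lowest to highest sample). At 8 dpf that mean was -0.85 to -0.45 in TBBPA eyes and -0.87 to -0.30 in control eyes. Their part in the values of 5 dpf was not tested.

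At 8 dpf, 3 days after the exposure had ended, the aanat2 transcript was 1.5-fold higher in TBBPA eyes than in control eyes (95% interval 1.24 to 1.80 on the linear scale). At 5 dpf the ratio was 1.2-fold, which did not pass the test over all probes. The aanat1 transcript differed little, by 1.11-fold at 5 dpf and 1.09-fold at 8 dpf, and passed the test at neither age. Neither member met the thresholds of the study for a changed transcript, an adjusted p under 0.05 together with an absolute log2 fold change over 0.75. These thresholds were met by 0.708% of all probes at 5 dpf and by 0.217% at 8 dpf. With the adjusted p alone, 1 of the 2 members, aanat2 at 8 dpf, was called, against 1.39% of all probes at 8 dpf and 7.08% at 5 dpf. These shares hold 0.696% higher and 0.696% lower at 8 dpf, and 4.23% higher and 2.84% lower at 5 dpf. The call and its interval take arrays as replicates of 3 RNA samples a group. It was lost with RNA samples as replicates (adjusted p = 0.506), with a dye term (adjusted p = 0.0577) and in 10 of 19 other settings in all.

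The level of aanat2 in each RNA sample is given on a log2 scale centred on the mean of all 12 samples. At 8 dpf it was 0.15, 0.35 and 0.67 in TBBPA replicates 1, 2 and 3, and -0.69, -0.23 and 0.15 in control replicates 1, 2 and 3. The groups did not overlap, but they nearly touched, with the lowest TBBPA sample at a level of 0.149 and the highest control sample at 0.145. How many of all probes had groups without overlap was not counted. The spread was wide in both, with means of 0.39 ± 0.26 in TBBPA and -0.26 ± 0.42 in control (SD, n = 3 each). An exact two-sided permutation test of the level difference of 0.64 gave p = 0.1, the smallest that 3 against 3 samples allow. In the limma model over all arrays, whose errors take the arrays as replicates, the log2 fold change was 0.58 ± 0.13 (SE, 95% interval 0.31 to 0.85, adjusted p = 0.0332). Among the 17950 probes this increase ranked 66 by size and 191 by p.

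**Figure D1:**
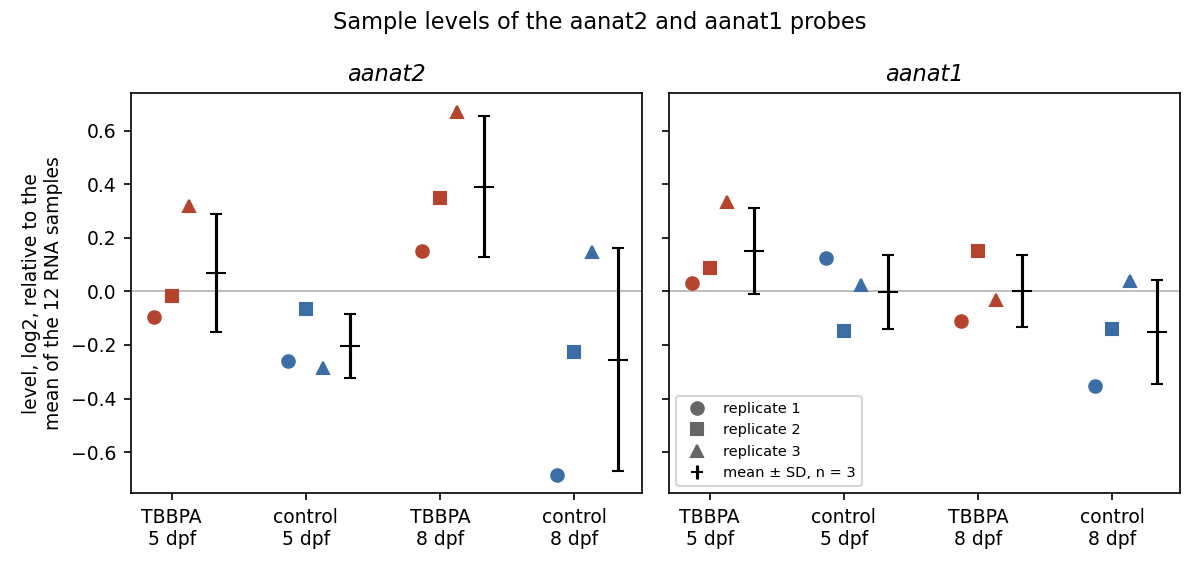
Levels of the aanat2 probe (left) and the aanat1 probe (right) in the 12 RNA samples, as log2 values relative to the mean of all samples. Symbols mark the replicate number and bars give the mean ± SD of 3 samples. At 8 dpf the 3 TBBPA samples of aanat2 lie at 0.15 to 0.67 and the 3 control samples at -0.69 to 0.15. The groups overlap for aanat2 at 5 dpf and for aanat1 at both ages.

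At 5 dpf, the end of the exposure, aanat2 lay at -0.09, -0.02 and 0.32 in TBBPA replicates 1, 2 and 3, against -0.26, -0.07 and -0.29 in the control replicates. TBBPA replicate 3 stood above the rest, and TBBPA replicate 1 lay below control replicate 2, so that the groups overlapped. The means were 0.07 ± 0.22 in TBBPA and -0.20 ± 0.12 in control (SD, n = 3 each, exact permutation p = 0.2, two-sided). The model gave a log2 fold change of 0.27 ± 0.11 (SE, 95% interval 0.04 to 0.49) in limma, with an adjusted p of 0.146 over all probes (0.0236 before adjustment). Without TBBPA replicate 3 the log2 fold change at 5 dpf was 0.14.

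The arrays that held both treatments of an age show where the aanat2 values came from. At 8 dpf the log2 ratio of TBBPA over control was 0.50 and 0.71 on the arrays with TBBPA replicate 1, 0.50 on the array with TBBPA replicate 3 and 0.22 on that with TBBPA replicate 2, thus above 0 on 4 of 4 arrays. At 5 dpf it was above 0 on 6 of 6 arrays but uneven in size. It was 0.75 and 0.43 with TBBPA replicate 3, 0.29 and 0.01 with TBBPA replicate 2, and 0.02 and 0.04 with TBBPA replicate 1. Accordingly, 3 of the 6 arrays of 5 dpf carried ratios close to 0.

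**Figure D2:**
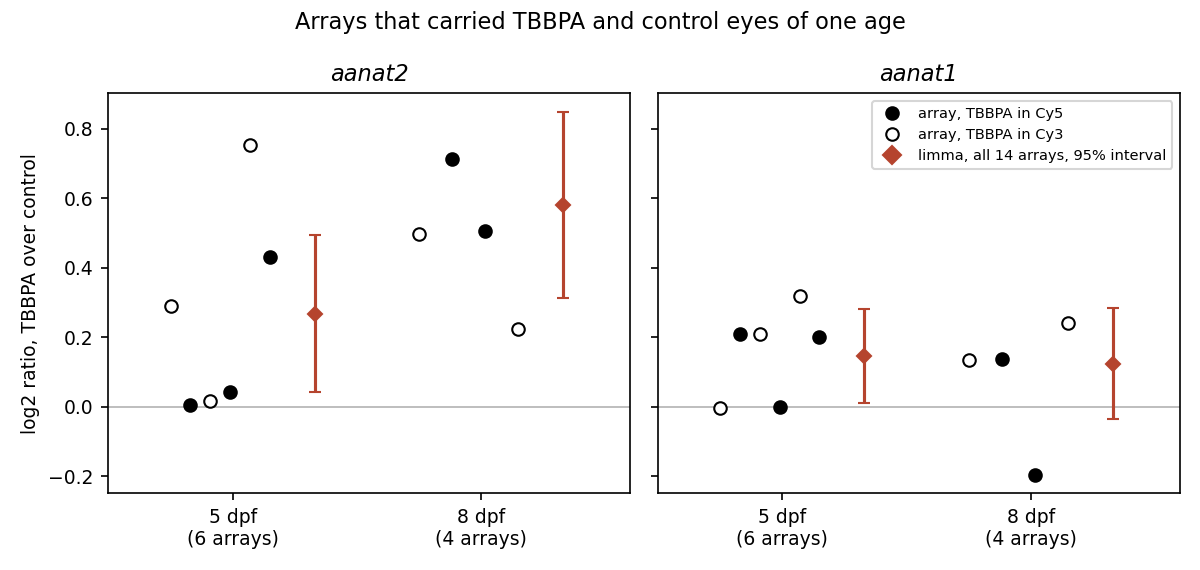
Log2 ratio of TBBPA over control on each array that held both treatments of an age, for aanat2 (left) and aanat1 (right). Circles are arrays, filled where the TBBPA sample carried Cy5 and open where it carried Cy3, and diamonds are limma estimates over all 14 arrays with their 95% intervals. For aanat2 all 6 arrays of 5 dpf and all 4 of 8 dpf lie above 0, and for aanat1 1 array of 8 dpf lies at -0.20.

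The retinal form aanat1 varied less between samples than aanat2 in each group but control eyes of 5 dpf (SD 0.14 against 0.12). At 5 dpf its level was 0.03, 0.09 and 0.33 in TBBPA replicates 1, 2 and 3, and 0.12, -0.15 and 0.02 in the control replicates. At 8 dpf it was -0.11, 0.15 and -0.03 in the TBBPA replicates, and -0.35, -0.14 and 0.04 in the control replicates. The groups overlapped at both ages. The difference of the mean levels was 0.15 at either age, with an exact two-sided permutation p = 0.4 each time. In the model the log2 fold change was 0.15 ± 0.06 at 5 dpf (SE, 95% interval 0.01 to 0.28, adjusted p = 0.190) and 0.12 ± 0.07 at 8 dpf (SE, 95% interval -0.04 to 0.28, adjusted p = 0.597). On the arrays that held both treatments the log2 ratio was above 0 on 4 of 6 arrays at 5 dpf, where it reached 0.32, and on 3 of 4 arrays at 8 dpf, where the array with TBBPA replicate 3 gave -0.20.

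Ordered by mean level, aanat2 was highest in TBBPA eyes at 8 dpf (0.39), followed by TBBPA eyes at 5 dpf (0.07), control eyes at 5 dpf (-0.20) and control eyes at 8 dpf (-0.26). No neighbours in this order were separated by the test. In TBBPA eyes the level at 8 dpf minus that at 5 dpf was 0.36 ± 0.16 (SE, 95% interval 0.01 to 0.71, adjusted p = 0.0856), while in control eyes it was 0.05 ± 0.16 (SE, 95% interval -0.30 to 0.40, adjusted p = 0.844). The sign of this control estimate is opposite to that of the mean sample levels above, whose difference was -0.051, so it has no settled direction. Leaving out TBBPA replicate 3 of 5 dpf (0.43, adjusted p = 0.0370) or control replicate 1 of 8 dpf (0.52, adjusted p = 0.0276) brought the change with age in TBBPA eyes past the adjusted p. These age contrasts rest on the 4 linking arrays. There, aanat2 at 8 dpf over 5 dpf gave 0.79 for TBBPA replicate 3 over TBBPA replicate 1, -0.71 for control replicate 1 over TBBPA replicate 1, 0.59 for TBBPA replicate 2 over control replicate 1, and 0.16 for control replicate 2 over control replicate 1. Over all probes, 43.3% passed the adjusted p in the TBBPA age contrast and 32.3% in the control one, whereas neither member passed it in either.

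For aanat1 the order was TBBPA at 5 dpf (0.15), TBBPA at 8 dpf (0.00255), control at 5 dpf (-0.00114) and control at 8 dpf (-0.15), and the changes with age within either treatment, the neighbours that were tested, did not pass. The close middle pair was not tested. Its level at 8 dpf minus that at 5 dpf was -0.18 ± 0.10 in TBBPA eyes (SE, adjusted p = 0.144) and -0.16 ± 0.10 in control eyes (SE, adjusted p = 0.221). Without TBBPA replicate 3 of 8 dpf the value in control eyes was -0.25 with an adjusted p of 0.0302.

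Whether the effect of TBBPA differed between the ages was tested as the effect at 8 dpf minus that at 5 dpf. It was 0.31 ± 0.16 for aanat2 (SE, 95% interval -0.04 to 0.66, adjusted p = 0.492) and -0.02 ± 0.10 for aanat1 (SE, adjusted p = 0.965), and 0.0613% of all probes passed the adjusted p in this contrast. The call of aanat2 at 8 dpf and not at 5 dpf is therefore not shown to be a difference between the ages. The members were compared with each other through aanat2 minus aanat1 in every sample. At 8 dpf this difference was 0.26, 0.20 and 0.70 in TBBPA replicates 1, 2 and 3, and -0.33, -0.08 and 0.11 in the control replicates. The groups did not overlap, but how many other pairs of genes had groups without overlap was not counted. The means were 0.39 ± 0.28 in TBBPA and -0.10 ± 0.22 in control (SD, n = 3 each, exact permutation p = 0.1, the smallest possible). At 5 dpf the difference was -0.08 ± 0.06 in TBBPA and -0.20 ± 0.25 in control (SD, n = 3 each, exact permutation p = 0.5). A differing response of the 2 members thus was not established at either age.

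The aanat2 value of 8 dpf kept its sign under all 19 other settings that were run, at 0.45 to 0.72, and passed the adjusted p under 9 of them. With a dye term for each probe the log2 fold change was 0.59, and with the 12 RNA samples as replicates it was 0.64, neither of which passed. The 4 arrays of 8 dpf alone gave 0.48 with an adjusted p of 0.202. Leaving out any 1 of 7 of the 12 RNA samples lost the call. Each such step also removed 2 or 4 of the 14 arrays, and the part of the fewer arrays in the loss was not tested. The call was lost without TBBPA replicate 1 (0.56, adjusted p = 0.435) or 3 (0.52, adjusted p = 0.181) of 8 dpf and without control replicate 1 (0.45, adjusted p = 0.247) or 2 (0.63, adjusted p = 0.162) of 8 dpf. It was also lost without TBBPA replicate 1 (0.48, adjusted p = 0.0955) or 2 (0.58, adjusted p = 0.0593) and without control replicate 1 (0.60, adjusted p = 0.113) of 5 dpf.

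**Figure D3:**
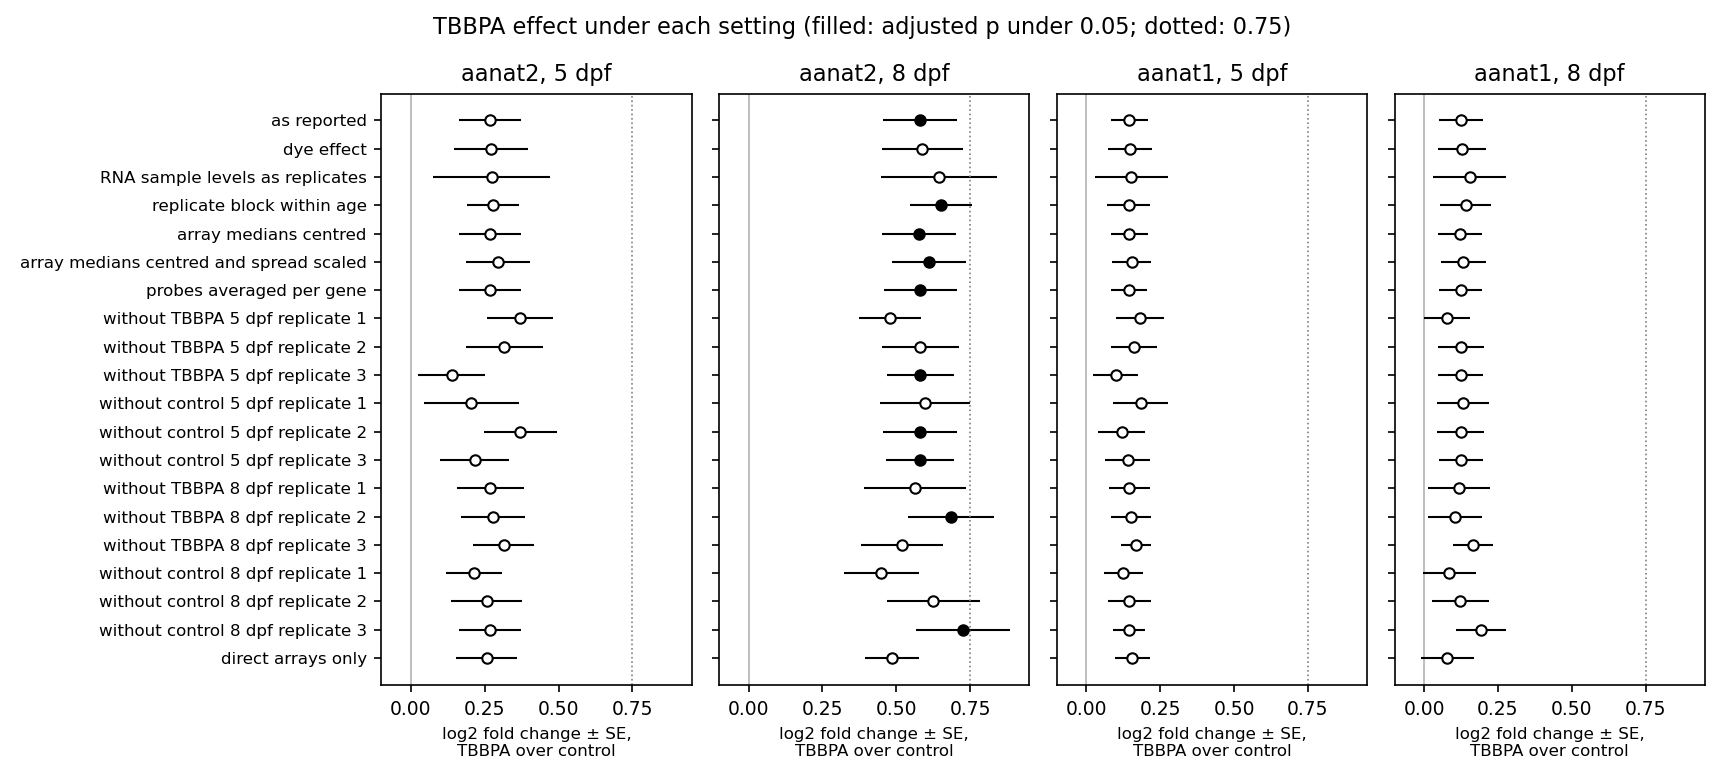
Log2 fold change of TBBPA over control (± SE) for aanat2 and aanat1 at 5 and 8 dpf, under the reported setting (top row) and 19 others. Filled points passed an adjusted p under 0.05 and the dotted line marks the size threshold of 0.75. All points lie above 0, and filled points occur only for aanat2 at 8 dpf, in the reported setting and in 9 of the 19 others.

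Other enzymes of the pathway did not pass the test at either age. Of 8 listed genes of melatonin synthesis, which include aanat1 and aanat2, 5 were measured by 7 probes, with 0 called by the thresholds of the study. With the members included, the median log2 fold change was 0.01 at 5 dpf and 0.09 at 8 dpf, against 0.00 over all probes at both ages. This median does not describe the other enzymes alone, whose values are given below by gene. At an unadjusted p under 0.05 in limma, 2 of these probes passed at 5 dpf, those of aanat1 and aanat2, and 2 at 8 dpf, those of aanat2 and asmt2. Over all probes 22.4% passed this level at 5 dpf and 11.7% at 8 dpf. For tph2, a tryptophan hydroxylase gene, the log2 fold change was 0.01 ± 0.05 at 5 dpf and 0.09 ± 0.06 at 8 dpf (SE). The 3 probes of ddc, the decarboxylase gene, lay between -0.17 and -0.07 at 5 dpf and between -0.03 and 0.05 at 8 dpf. For asmt2, an acetylserotonin O-methyltransferase gene that acts after Aanat, the estimate was 0.01 ± 0.07 at 5 dpf (SE, adjusted p = 0.981) and 0.24 ± 0.09 at 8 dpf (SE, adjusted p = 0.245). At 8 dpf its levels were 0.03, 0.21 and -0.11 in TBBPA eyes and -0.21, -0.13 and -0.24 in control eyes. The nearest samples of these groups were at -0.11 and -0.13, and a rise of asmt2 was not established.

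**Figure D4:**
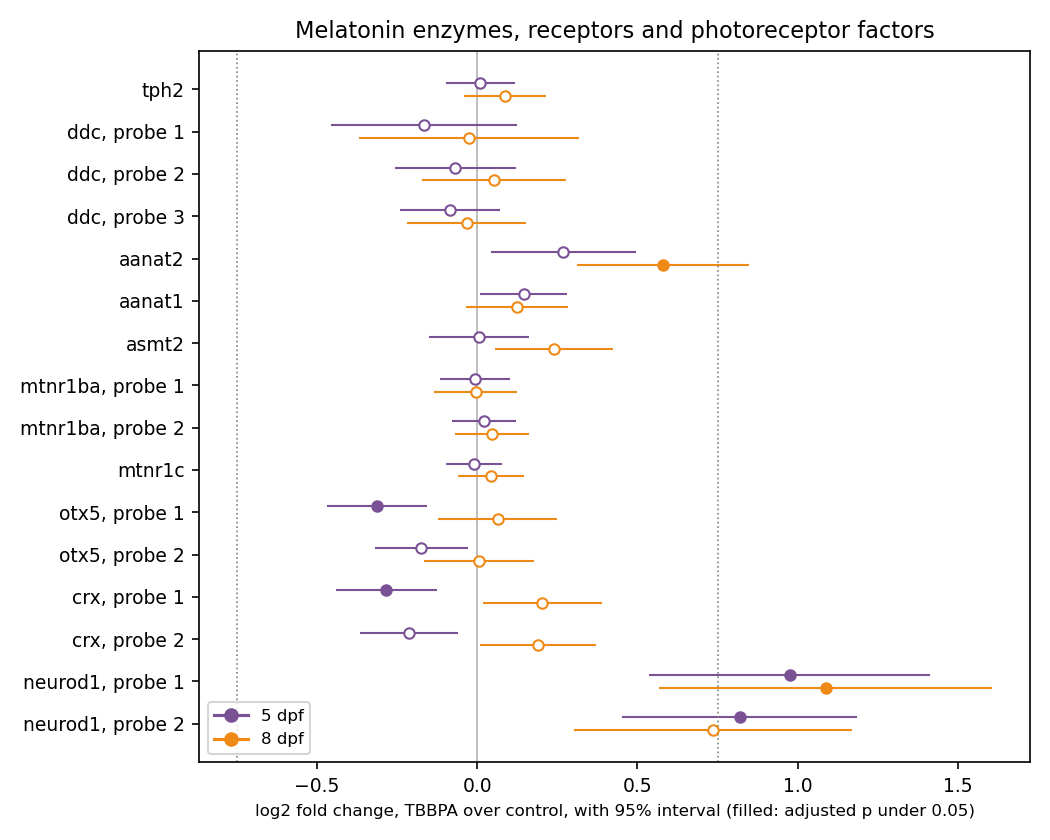
Log2 fold change of TBBPA over control with its 95% interval at 5 and 8 dpf, by probe, for melatonin enzymes (tph2 to asmt2), melatonin receptors (mtnr1ba, mtnr1c) and transcription factors of photoreceptors (otx5, crx, neurod1). Filled points passed an adjusted p under 0.05 and dotted lines mark -0.75 and 0.75. Among enzymes and receptors, aanat2 at 8 dpf (0.58) is the only filled point, and the neurod1 probes reach 0.74 to 1.09.

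Receptors and supply genes were likewise without a call. The melatonin receptor genes mtnr1ba (2 probes) and mtnr1c (1 probe), 2 of 6 listed, had log2 fold changes of -0.01 to 0.02 at 5 dpf and -0.01 to 0.05 at 8 dpf. Tetrahydrobiopterin is the cofactor of tryptophan hydroxylase, and 5 of 10 listed genes of its synthesis and recycling were measured by 8 probes, at -0.34 to 0.13 at 5 dpf and -0.37 to 0.06 at 8 dpf, with 0 called. The serotonin transporter gene slc6a4a, the vesicular transporter gene slc18a2 and the monoamine oxidase gene mao, which removes serotonin, lay between -0.05 and -0.01 at 5 dpf and between -0.06 and 0.07 at 8 dpf. They were among the 4 measured of 5 genes of that list, and the other was ftcd, a gene of histidine breakdown, at -0.31 (adjusted p = 0.138) and 0.02. Dopamine acts against melatonin in the retina of many vertebrates, and the 5 measured of 12 listed genes for its synthesis, transport and receptors were at -0.14 to 0.00 at 5 dpf and -0.03 to 0.11 at 8 dpf, with 0 called. At an unadjusted p under 0.05 in limma, 1 serotonin probe (ftcd) and 1 dopamine probe (drd4a) passed at 5 dpf. None of the 4 lists had such a probe at 8 dpf. Over all probes 22.4% passed this level at 5 dpf and 11.7% at 8 dpf.

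Aanat protein is stabilised in vertebrates by cAMP-dependent phosphorylation and binding of 14-3-3 proteins. Of 28 listed genes of adenylyl cyclases, protein kinase A, CREB factors and 14-3-3 proteins, 22 were measured by 37 probes and 0 were called. With the adjusted p alone, 2 of the 37 probes were higher at 5 dpf, against 4.23% of all probes, and 0 passed at 8 dpf. They were 1 probe of the 14-3-3 gene ywhaz (0.29, adjusted p = 0.0277) and 1 of the kinase subunit gene prkar2aa (0.32, adjusted p = 0.00595). The other probes of ywhaz (0.05 and 0.27) and of prkar2aa (0.09 and 0.15) did not pass. At an unadjusted p under 0.05 in limma there were 7 such probes of 37 at 5 dpf and 8 at 8 dpf, against 22.4% and 11.7% of all probes at these ages. Protein amounts and enzyme activity were not measured.

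Of 19 listed transcription factors of photoreceptors, 18 were measured by 39 probes, and the called probes all belonged to neurod1, a proneural gene with a role in photoreceptor formation. Its probes had log2 fold changes of 0.97 and 0.82 at 5 dpf (adjusted p = 0.011 for each), and of 1.09 (adjusted p = 0.041) and 0.74 (adjusted p = 0.108) at 8 dpf. Probes called higher made up 0.357% of all probes at 5 dpf and 0.1% at 8 dpf. Among the homeobox genes of the Otx and Crx family, otx5 had -0.31 (adjusted p = 0.019) and -0.17 (adjusted p = 0.140) and crx -0.28 (adjusted p = 0.030) and -0.21 (adjusted p = 0.091) at 5 dpf, by probe. The other measured genes of that family, otx2a (0.05) and otx2b (0.04, -0.02 and -0.09, by probe), did not pass. The fall was not particular to that family, since rx1 had -0.38 (adjusted p = 0.0068) and -0.14 (adjusted p = 0.101) at 5 dpf. By the adjusted p alone, 3 of the 39 probes were lower at 5 dpf, against 2.84% of all probes. At 8 dpf otx5 had 0.06 and 0.01 and crx 0.20 and 0.19, none of which passed. As with aanat2, control replicate 1 of 8 dpf had the lowest neurod1 level of its group, at -1.15 and -0.60 on the 2 probes, against -0.01 to 0.62 in the other control samples of that age.

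Several clock genes had larger fold changes than either member. Of 57 listed genes, 39 were measured by 66 probes, with 4 called higher and 14 lower at 5 dpf and 1 higher and 11 lower at 8 dpf, and with a median log2 fold change of -0.23 at 5 dpf and -0.26 at 8 dpf. Over all probes 0.351% were called lower at 5 dpf and 0.117% at 8 dpf, and 0.357% and 0.1% were called higher at these ages. The clock calls take arrays as replicates, and their counts fell to 0 in some other settings. The period gene per1b, a repressor of the clock, had -1.94 at 5 dpf and -2.20 at 8 dpf, and nr1d1, which codes for a nuclear receptor that represses bmal1, had -2.07 and -1.72 at these ages. At 8 dpf per1b lay between -0.99 and -0.91 in TBBPA eyes and between 1.22 and 1.28 in control eyes. At 5 dpf it spread more widely, over -1.63 to -0.62 in TBBPA eyes and 0.18 to 1.37 in control eyes. For nr1d1 the levels at 5 dpf were -1.72 to -1.15 in TBBPA eyes and -0.45 to 1.55 in control eyes. The other genes called lower were nr1d2b, dbpa and tefa at both ages, bhlhe41, cry-dash and nfil3-6 at 5 dpf, and bhlhe40 and cry2 at 8 dpf. Higher calls were cry2b at both ages, and nfil3, nfil3-5 and rorcb at 5 dpf. The activator gene bmal1a, whose protein binds E-boxes with Clock, had 0.56 at 5 dpf (adjusted p = 0.00501) and 0.37 at 8 dpf (adjusted p = 0.188). The part of the clock genes in the aanat2 value was not tested.

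Marker genes of photoreceptors, other eye tissues, pineal and exocrine pancreas gave the following values. At 8 dpf the mean level of the 41 photoreceptor marker genes, with the probes of each gene averaged first, was -0.22 to -0.07 in TBBPA eyes. In control eyes it was -0.36 to -0.26. Their 90 probes had a median log2 fold change of 0.13. Of these probes, 4 were called higher (opn1lw2, opn1mw1 and opn1mw2, cone opsin genes) and 1 lower (pde6c, a cone phosphodiesterase gene). At 5 dpf that mean was 0.15 to 0.26 in TBBPA eyes and 0.19 to 0.26 in control eyes, with 6 probes called higher, those of the same opsin genes and rom1a, and 2 lower (guca1g and pde6c). By the adjusted p alone, 11 of the 90 probes were higher and 19 lower at 5 dpf, against 4.23% and 2.84% of all probes, and 16 were higher and 3 lower at 8 dpf, against 0.696% in each direction. Their part in the aanat2 value was not tested. Of the 26 probes for lens, cornea, pigment epithelium and retinoid handling, 4 were called higher at 5 dpf (cryba1b, cryba4, crybb1 and kera) and 1 at 8 dpf (kera). Over all probes these shares were 0.357% and 0.1%. By the adjusted p alone, 7 of the 26 were higher and 5 lower at 5 dpf, and 1 was higher and 1 lower at 8 dpf. Those lower at 5 dpf belonged to the retinoid handling genes rbp4l (-0.67, -0.65 and -0.33), rpe65a (-0.39) and rbp3 (-0.47), and were not assigned to a cell type here. The 1 lower at 8 dpf was rpe65a (-0.51). The other probes of cryba1b (0.02) and crybb1 (0.37 to 0.41) did not pass at 5 dpf. The pineal marker exorh had -0.28 at 5 dpf (adjusted p = 0.701) and -0.01 at 8 dpf (adjusted p = 0.998), and at 8 dpf its level was 0.23, -0.15 and 0.20 in TBBPA eyes and 0.38, 0.55 and -0.39 in control eyes. Of the 29 exocrine pancreas probes, 19 were called lower at 5 dpf, against 0.351% of all probes, and 0 in either direction at 8 dpf. At 8 dpf 0 of these probes had an unadjusted p under 0.05 in limma, against 11.7% of all probes. Their part in the aanat2 values was not tested. The called genes were amy2a, cela1.6, cpa4, cpb1, ctrb.1, ctrb.2, ctrb.3, ctrl, ela2, ela2l, ela3l, prss1 and prss59.1.

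Likeness to other genes was described by Pearson's r over the 12 RNA sample levels, which share arrays and the 4 groups, against 8947 other named genes. Closest to aanat2 were si:ch73-141c7.1 (0.95), rxrgb (0.91), a retinoid X receptor gene, pisd (0.90), a gene of phospholipid synthesis, ttyh2l (0.90) and septin4a (0.90). For aanat1 they were ltn1 (0.91), sowahcb (0.90), ist1 (0.90), nipsnap3a (0.90) and otud5b (0.89). With the group means removed, aanat2 was closest to ppp2cab (0.96), pisd (0.95), sema6ca (0.95), slc1a7a (0.94) and cdk2ap2 (0.94), so that pisd was the gene found on both lists. For aanat1 these were mbd2 (0.94), tmeff1 (0.94), tgfb2 (0.94), sowahcb (0.93) and srp68 (0.93). The members themselves had an r of 0.53 with each other over the 12 levels, where aanat1 ranked 622 among the genes most like aanat2 and aanat2 ranked 2142 among those most like aanat1. With group means removed r was 0.61, and these ranks were 904 and 1534. In control eyes of 8 dpf both members were lowest in replicate 1 and highest in replicate 3, and in TBBPA eyes of 5 dpf both were highest in replicate 3. The other groups differed. In control eyes of 5 dpf replicate 2 was highest for aanat2 and lowest for aanat1. In TBBPA eyes of 8 dpf both were lowest in replicate 1, but aanat2 was highest in replicate 3 and aanat1 in replicate 2.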

How the data were processed

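According to the methods, the authors quantified the arrays with GenePix, left out spots that exceeded local background on no array, applied a normal-exponential background correction and within-array loess, and fitted limma 3.34.4. They deposited log2 ratios per probe and array, taken as Cy5 over Cy3 from the methods and dye labels, since the table names neither base nor direction. Turning round any single array lowered the residual sum of squares in 0 of 14 cases. This compares the arrays with each other only, and the direction common to all of them could not be tested. The ratios had no missing value. They were fitted as deposited in limma 3.58.1 (R 4.3.3) with a coefficient per group and the RNA sample as a random effect. Its estimated share of the variance was 0, so that standard errors take arrays and not plates as replicates (11 residual degrees of freedom). Tests were two-sided, with Benjamini-Hochberg adjustment over all 17950 probes. Sample levels were estimated by least squares from all arrays and share array errors. The fit was tested on simulated data. Gene names came from the platform annotation, updated through RefSeq (GRCz12tu, for names alone): 14135 probes had a symbol, 3815 had none. Members, lists and the rule for named genes (members, called list genes, enzymes and receptors of melatonin, 5 most alike) were chosen with earlier results of these data known. Alternatives were a dye term, RNA samples as replicates, arrays within an age alone, a replicate block, median centring, spread scaling, averaging per gene, and leaving out each sample.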

Additional observations from a re-analysis of the deposited data

How the results depend on the processing

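Under the adjusted p alone, aanat2 at 8 dpf (0.58) counted as called, whereas the thresholds of the study did not call it. That call was lost with a dye term (0.59, with the share of the RNA sample then estimated at 0.318), with RNA samples as replicates (0.64) and with arrays of 8 dpf alone (0.48), and leaving out single samples gave 0.45 to 0.72. Without each sample in turn, aanat2 at 5 dpf ranged over 0.14 to 0.37, aanat1 at 5 dpf over 0.10 to 0.18 and aanat1 at 8 dpf over 0.08 to 0.19, and none passed. The difference of the aanat1 effects between ages (-0.02) changed sign with RNA samples as replicates (0.0028) and ranged over -0.10 to 0.048 without single samples. The control age contrast of aanat2 (0.05) changed sign with RNA samples as replicates (-0.051) and without single samples (-0.058 to 0.28). Without single samples the control age contrast of aanat1 ranged over -0.25 to -0.078 and the TBBPA age contrast of aanat2 over 0.15 to 0.52. The causes were not tested.

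Deviations of same-numbered TBBPA and control samples had correlations of -0.14, -0.11 and -0.04 at 5 dpf for replicates 1, 2 and 3. At 8 dpf these were 0.68, -0.46 and 0.09. Sample levels share array errors, so these values cannot separate a pairing of plates from the array layout. At 8 dpf the replicate 1 samples shared an array, as did those of replicate 3, whereas those of replicate 2 did not. The aanat2 level rose from replicate 1 to replicate 3 in both treatments at 8 dpf, but not in both at 5 dpf. Whether the numbers pair the samples is therefore not settled, and the reported setting does not pair them. With a replicate block, aanat2 at 8 dpf was 0.65 (adjusted p = 0.0182), and 130 probes were called at 5 dpf and 43 at 8 dpf. The age contrasts of this setting refer to replicate 1 of 8 dpf against replicate 1 of 5 dpf. For aanat2 they were -0.30 in control eyes and 0.07 in TBBPA eyes. They are a different quantity from the reported age contrasts, so their sign cannot be compared. The ranges of age contrast counts below include this setting.

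The counts of called probes over the whole table varied more. The 127 probes of 5 dpf became 0 with RNA samples as replicates, 60 genes when probes were averaged, and 18 to 216 without single samples. The 39 probes of 8 dpf became 0, 18 genes and 6 to 97 under these settings, and 6 with arrays of that age alone. The 5 probes called for the difference between ages ranged from 0 to 81, the 1221 of the control age contrast from 342 to 1451 and the 1673 of the TBBPA age contrast from 608 to 2107. Clock probes called lower ranged from 0 to 18 at 5 dpf (14 as reported) and from 0 to 19 at 8 dpf (11 as reported), those called higher from 0 to 4 and from 0 to 2, and the neurod1 calls from 0 to 2 and from 0 to 1. Photoreceptor marker probes called higher ranged from 0 to 10 at 5 dpf and from 0 to 5 at 8 dpf, those called lower from 0 to 6 and from 0 to 2, and exocrine pancreas probes called lower at 5 dpf from 0 to 22 (19 as reported), with 0 of them without control replicate 1 of 5 dpf.

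Each member rests on 1 probe. Ratios carry no absolute level, so the levels of aanat1 and aanat2 cannot be compared with each other. All eyes were taken in the morning, so night-time levels were not sampled.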
